A study of Mus musculus with 63 samples.

Results

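Beta cells of the pancreatic islet, sorted from ICR mice, were compared between the end of gestation and adult life by RNA sequencing. The comparison took 25 of the 63 libraries of the series by their titles: 21 libraries of adults of 84 to 364 days (median 158 days) and 4 libraries of embryos near the end of gestation (E18.5, age label embryonic day 18). All 25 samples were labelled wild type with the genotype Cherry/+; Ins2-Cre/+, so both groups carry 1 Cherry allele and 1 allele in which sequences of the insulin gene *Ins2* drive Cre recombinase. Islets were isolated, dissociated and sorted by flow cytometry for mCherry, so the sort selected mCherry-positive cells. Marker genes of other cell types still had counts. In single adult libraries, acinar genes held up to 32.3% of counts and alpha cell genes up to 0.642%. The adults were 10 males and 11 females with blood glucose of 103 to 190 mg/dl and weights of 19.46 to 62.39 g, and the embryos carry no label for sex, glucose or weight. The labels do not say how many embryos gave an E18.5 library or whether the 4 came from separate animals. The spread between the E18.5 libraries may therefore be technical in part. RNA was extracted with a Qiagen column from E18.5 1 and 17 adults, and with TRIzol from E18.5 2 to 4 and 4 adults, all female. The model therefore held a term for the extraction. It estimated the spread over all 63 libraries in 9 groups, so the p-values do not rest on the adults and E18.5 alone.

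Beta cells make, store and release insulin. Around birth they still divide and release insulin with little dependence on glucose; adult beta cells divide rarely and tie release to glucose metabolism, through ATP, closure of potassium channels, calcium entry and fusion of insulin granules. Known accompaniments of this maturation are the rise of the transcription factor MAFA, the appearance of the peptide urocortin 3, and the loss of fetal growth regulators, many of which are imprinted, that is, expressed from 1 parental copy.

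The libraries held 35580919 to 43542675 expected counts at E18.5 and 28402845 to 44485032 in adults. *Ins1* and *Ins2* together held 24.9 to 35% of counts at E18.5 and 18.9 to 56.7% in adults (medians 30.3 and 35.7%). Levels below are in CPM, read counts scaled to a common library size after TMM scaling (factors of 0.558 to 1.44 in adults and 1.22 to 1.55 at E18.5), and are not corrected for gene length. E18.5 values are listed in the order of libraries 1 to 4, and adult values as the lowest, the median and the highest. Fold changes are on the log2 scale, adults minus E18.5, ± standard error, from edgeR's quasi-likelihood test, two-sided, and a gene rose or fell where its p, adjusted with the Benjamini-Hochberg method over 16092 tested genes, lay below 0.05. The libraries are bulk RNA: fewer cells of a type and less of an RNA per cell cannot be told apart. Genes of acinar cells, the source of digestive enzymes, held 0.0652 to 0.318% of counts at E18.5 and 0.0338 to 32.3% in adults (median 8.84%), and 19 of 21 adults lay above the highest E18.5 library.

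In all, 5596 genes (34.8% of those tested) differed, 2508 (15.6%) higher and 3088 (19.2%) lower in adults. The CPM of the groups did not overlap for 795 genes (4.94%) with every adult above every E18.5 library and for 1124 (6.98%) with every adult below. Calls of at least 2-fold were made for 1377 genes upward (8.56%) and 1771 downward (11%). The median change of all tested genes was 0.01, against which the medians of gene lists below are read. Within extractions, 3231 genes were called from the TRIzol libraries (3 E18.5 and 4 adults) and 1860 from the Qiagen libraries, where E18.5 has 1 library and its spread is taken from the other groups. Of the 183 called genes named in this text, 149 kept their call and direction in the TRIzol libraries and 119 in the Qiagen libraries, and none reversed. Losses in the TRIzol libraries are given beside the changes printed below.

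**Figure D1:**
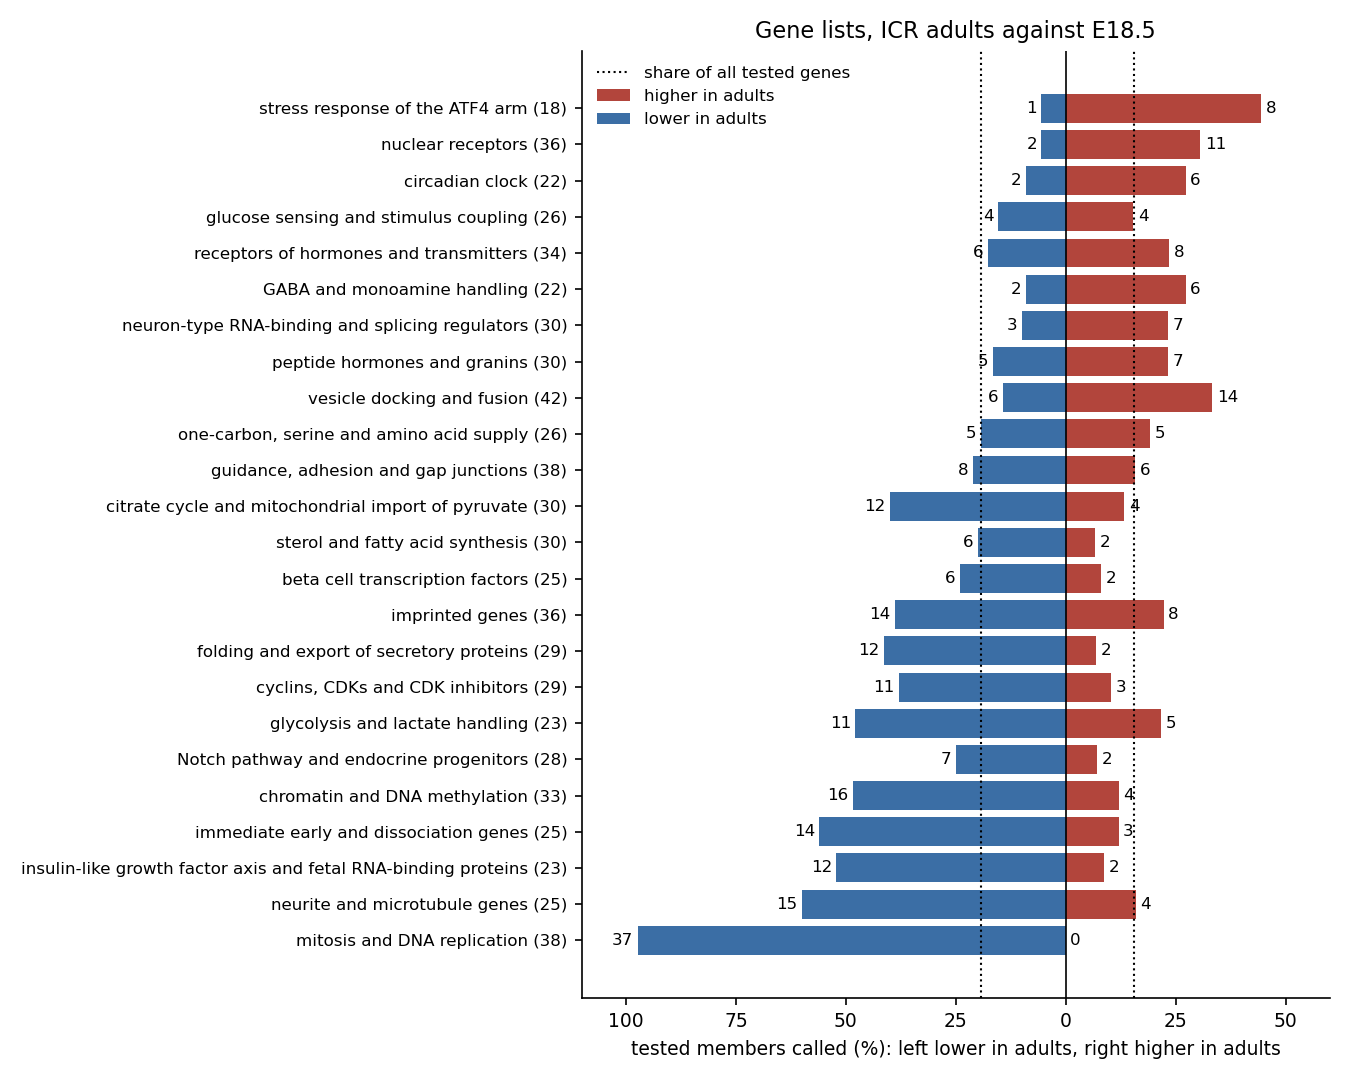
Each bar gives the share of a list's tested members (number in brackets) called higher (red, right) or lower (blue, left) in adults, with the count at its end and dotted lines at the shares of all tested genes, 15.6% and 19.2%. Lists are ordered by median log2 fold change; mitosis and DNA replication, with 37 of 38 members lower, stands at the bottom and the ATF4 stress response, with 8 of 18 higher, at the top.

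Transcription factors that give beta cells their identity were called about as often as all genes, and most of the called members fell. Of 25 beta cell transcription factors tested, 2 rose, 6 fell and 17 were not called, with a median of -0.25. The share called was 32%, against 34.8% of all genes tested. *Mafa*, a factor of mature beta cells, stood at 47.26, 74.7, 94.3 and 74.2 CPM at E18.5 and at 53.02, 132.9 and 192 CPM in adults, a difference of 1.15 ± 0.50 that was not called (adjusted p = 0.0642). It was called with DESeq2 (adjusted p = 0.0398), with voom (adjusted p = 0.00273) and from the 25 libraries alone (adjusted p = 9.59e-04). *Pax4*, a factor of beta cell specification, had 127 counts over the E18.5 libraries and 0 over the 21 adults, so it was at least 145-fold lower in adults, with a floor of 3 counts over the group; DESeq2 did not call it (adjusted p = 0.135). *Myt1*, a zinc finger factor of endocrine differentiation, fell by 1.16 ± 0.27 without overlap, and *Pdx1*, the factor that both forms the pancreas and runs the insulin genes, fell by 0.78 ± 0.20. *St18*, a zinc finger factor related to *Myt1*, went the other way: it stood at 25.4, 38.85, 38.5 and 33.9 CPM and at 61.9, 76.5 and 118 CPM in adults and rose by 1.28 ± 0.22, again without overlap. *Nkx6-1* (-0.02 ± 0.24), *Neurod1* (-0.38 ± 0.16), *Pax6* (0.05 ± 0.17), *Isl1* (-0.03 ± 0.24) and *Insm1* (-0.57 ± 0.27) were not called, the last being called without E18.5 3 (-0.76, adjusted p = 0.0366). *Neurod1* was called lower with DESeq2 (adjusted p = 0.034), with median-ratio scaling factors (adjusted p = 0.0333) and from the 25 libraries alone (adjusted p = 0.011). The other member higher in adults, *Foxa1*, had 0 counts at E18.5 and at most 0.941 CPM in an adult, and its call was lost when any single E18.5 library or Adult 19 was left out (1 member of the list was then higher), as well as in the TRIzol libraries.

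Genes of glucose sensing and its coupling to release did not move as a block. Of 26 genes of glucose sensing and stimulus coupling tested, 4 rose and 4 fell, with a median of 0.19. Calls covered 30.8% of the list, against 34.8% of all genes tested. *Mdh2*, the mitochondrial malate dehydrogenase, was at 474, 320.3, 328 and 315 CPM at E18.5 and at 178, 215 and 277 CPM in adults, and fell by 0.81 ± 0.20, without overlap, and *Glud1*, glutamate dehydrogenase, fell by 0.53 ± 0.13. *Ero1b*, the oxidase that serves disulfide bonds in proinsulin, stood between 678 and 799 CPM in the E18.5 libraries and at 1332, 2022 and 2614 CPM in adults, and rose by 1.3 ± 0.23. *G6pc2*, the islet glucose-6-phosphatase, rose by 0.95 ± 0.25 and *Cacna1d*, a pore subunit of L-type calcium channels, rose by 0.99 ± 0.30, which was 0.68 without E18.5 1 (adjusted p = 0.111). *Slc2a2*, the glucose transporter, and *Kcnj11* and *Abcc8*, the channel closed by ATP, were at -0.25 ± 0.28, -0.10 ± 0.26 and 0.51 ± 0.26, none called. In the TRIzol libraries 3 rose and none fell, and the calls of *Mdh2*, *Glud1* and *Cacna1d* were lost.

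Receptors through which hormones and transmitters tune beta cells changed in both directions. Of 34 receptors tested, 8 rose and 6 fell, with a median of 0.19, and without E18.5 1 5 members rose. In all, 41.2% of the receptors were called, against 34.8% of all genes tested. *Prlr*, the prolactin receptor, stood between 143.8 and 200.9 CPM at E18.5 and at 646, 1066 and 1677 CPM in adults. *Vipr1*, a receptor of vasoactive intestinal peptide, was at 4.44, 9.183, 6.59 and 2.95 CPM and then at 15.3, 24.2 and 48.8 CPM, and rose by 1.79 ± 0.28 (adjusted p = 7.60e-07). *Adora1*, an adenosine receptor that lowers cyclic AMP, was at 3.44, 4.401, 4.26 and 8.67 CPM and then at 12.8, 24.5 and 38.88 CPM, and rose by 2.18 ± 0.35. None of these 3 receptors had an adult within the E18.5 range. Receptors on the falling side were *P2ry1*, a receptor for ADP, at -1.21 ± 0.29 (not called in the TRIzol libraries), and *Sstr5*, a somatostatin receptor, which stood at 0.414, 1.28, 1.90 and 0.618 CPM and at no more than 0.0875 CPM in an adult. The incretin receptors, which raise release after meals, overlapped between the groups. *Gipr* rose by 1.64 ± 0.44 and its E18.5 4 value (49.6 CPM) stood apart from 12.8, 17.5 and 17.01 CPM in the other E18.5 libraries; without the extraction term it was not called (adjusted p = 0.107). *Glp1r* rose by 1.67 ± 0.67 (adjusted p = 0.0475), and its call was lost in 16 of 38 alternative fits, each E18.5 library left out among them; without E18.5 1 the adjusted p was 0.16 at 1.46.

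Among secreted peptides, ghrelin, gastrin and peptide YY fell and the opioid precursors rose, while *Ins1*, *Ins2* and *Iapp* were not called. Of 30 peptide hormones and granins tested, 7 rose and 5 fell, with a median of 0.08. This list was called in 40% of members, against 34.8% of all genes tested. *Ghrl*, the precursor of ghrelin, stood at 21.7, 4.93, 5.07 and 6.24 CPM and at 0, 0.0292 and 0.353 CPM in adults, and fell by 8.06 ± 0.66. *Gast*, gastrin, was at 2.07, 1.72, 2.31 and 1.66 CPM and reached at most 1.13 CPM in an adult (-4.31 ± 0.77). *Trh*, the precursor of thyrotropin-releasing hormone, fell by 3.75 ± 0.72 and *Pyy*, peptide YY, fell by 2.01 ± 0.50 from 751, 506, 386 and 577.7 CPM. The groups did not overlap for *Ghrl*, *Gast* or *Trh*, while 1 or more adults reached the fetal range of *Pyy*, with a highest value of 703.3 CPM. *Pdyn*, the precursor of dynorphins, was below 1 CPM in each E18.5 library and at 15.9, 74.9 and 337 CPM in adults, and *Penk*, the precursor of enkephalins, went from 2.05, 1.56, 0.916 and 2.42 CPM to 2.43, 11.4 and 68.4 CPM (3.27 ± 0.97). *Resp18*, a protein of the regulated secretory pathway, was at 130.4, 75.5, 72.6 and 75.8 CPM and at 669.6, 1050.0 and 1583 CPM, and rose by 3.44 ± 0.32. *Ucn3* lay within 72.02 to 82.2 CPM at E18.5 and reached 471, 754 and 1077 CPM in adults. A smaller rise without overlap was that of *Scg5*, a chaperone of the prohormone convertase PC2 (0.91 ± 0.25). *Iapp*, which codes for islet amyloid polypeptide (0.49 ± 0.27), *Chga* (-0.01 ± 0.30), *Pcsk1* (-0.49 ± 0.29), *Pcsk2* (0.42 ± 0.25) and *Npy* (-0.78 ± 0.56, 762.4, 791, 564 and 444 CPM against 104, 418 and 921 CPM) were not called.

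The machinery of vesicle docking and fusion changed its make-up. Of 42 genes of vesicle docking and fusion tested, 14 rose and 6 fell, with a median of 0.05, and without E18.5 1 9 rose. The calcium sensors led the rises: *Syt10* was below 1 CPM in every E18.5 library and at 2.18, 25.1 and 69.03 CPM in adults, *Syt4* went from 6.70, 11.2, 7.34 and 7.29 CPM to 60.5, 96.7 and 174 CPM, *Syt5* rose by 1.32 ± 0.29 and *Syt3* rose by 1.14 ± 0.24. *Snap25*, a core protein of the fusion complex, stood at 45.6, 47.7, 48.6 and 62.9 CPM and at 80.2, 130.5 and 197 CPM in adults, and rose by 1.65 ± 0.23 without overlap. On the falling side, *Stx1a*, the syntaxin of the plasma membrane, was at 21.6, 24.37, 20.7 and 25.5 CPM and at 3.87, 7.84 and 10.8 CPM, and fell by 1.47 ± 0.21. *Vamp3*, a vesicle protein of constitutive and recycling traffic, fell by 1.54 ± 0.16, whereas *Vamp2*, its counterpart on insulin granules, rose by 0.57 ± 0.18; without E18.5 1 *Vamp2* was not called (0.52, adjusted p = 0.0545). *Doc2b*, a calcium sensor of slow release, fell by 4.13 ± 0.75 and *Rph3al*, a granule effector of Rab GTPases, fell by 0.97 ± 0.24. *Syt7* (-0.14 ± 0.28), *Syt9* (-0.01 ± 0.32) and *Syt13* (0.04 ± 0.26), further synaptotagmins of islets, were not called. In the TRIzol libraries 9 rose and 6 fell, and *Doc2b* and *Vamp2* were not called.

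Of 22 genes that handle GABA and monoamines tested, 6 rose and 2 fell, with a median of 0.15. They were called about as often as all genes, 36.4% against 34.8%. *Gad2*, which makes the transmitter GABA, was below 1 CPM in every E18.5 library and stood at 4.53, 12.4 and 31.2 CPM in adults. *Slc6a17*, a vesicle carrier of neutral amino acids, rose from 3.65, 2.52, 3.15 and 2.18 CPM to 5.96, 13.6 and 31.5 CPM (2.01 ± 0.31). Enzymes of monoamines moved the same way: *Ddc*, which makes dopamine and serotonin, was at 163, 146.5, 188 and 154 CPM and at 309, 391 and 461 CPM (1.16 ± 0.21), and the degrading enzyme *Maoa* rose by 1.17 ± 0.24, without overlap. *Slc18a1*, a vesicle monoamine carrier, fell by 1.06 ± 0.22, and *Gabra3*, a GABA receptor subunit, had 41 counts over the E18.5 libraries and 0 over the adults, at least 46.8-fold lower by the same floor. The call of *Gabra3* was lost with DESeq2 (adjusted p = 0.23), and those of *Gabra3* and *Slc18a1* in the TRIzol libraries, where 6 rose and none fell.

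Imprinted genes split into 14 that fell and 8 that rose. Of 36 imprinted genes tested, 8 rose and 14 fell, with a median of -0.29; 8 further listed genes were not analysed here. *Gnas*, which codes for the stimulatory G protein alpha subunit, was the most abundant, at 5043, 4300.0, 3985 and 4026 CPM in the E18.5 libraries and 640.1, 848 and 1049 CPM in adults, and fell by 2.47 ± 0.12 (adjusted p = 8.13e-25). *Nnat*, neuronatin, stood at 3208, 3751, 3374 and 2569 CPM and at 9.38, 24.2 and 54.2 CPM, and *Dlk1*, a Notch-related ligand, at 527.6, 509.9, 461 and 592 CPM and 0.191, 0.831 and 2.80 CPM. In each of these 3 genes the highest adult lay far below the lowest E18.5 library. *Grb10*, an adaptor that damps insulin and growth factor receptors, was at 72.7, 83.2, 105.8 and 89.2 CPM and at 1.90, 4.95 and 11.5 CPM, and fell by 3.99 ± 0.36. *Cdkn1c*, the cell cycle inhibitor p57, was at 79.03, 20.6, 16.9 and 27.22 CPM and at 0.552, 2.01 and 6.20 CPM, and fell by 4.20 ± 0.43. *Igf2*, the fetal growth factor, was at 78.1, 48.98, 14.5 and 23.1 CPM and at 0.483, 2.50 and 12.1 CPM, and fell by 4.06 ± 0.52. E18.5 1 was the highest of its group for both *Cdkn1c* and *Igf2*, yet all E18.5 libraries lay above all adults. *Mest*, an enzyme of the hydrolase fold, and *Peg10*, a gene derived from a retroelement, fell by 2.90 ± 0.60 and 3.73 ± 0.81.

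The imprinted genes that rose include proteins of neurons and of stress signalling. *Nap1l5*, of the nucleosome assembly family, was at 5.53, 2.67, 2.91 and 5.73 CPM and at 22.2, 32.3 and 46.3 CPM, and rose by 3.19 ± 0.29 (adjusted p = 2.15e-13). *Snrpn*, a splicing protein of neurons, was at 28.8, 23.6, 20.7 and 16.5 CPM and at 61.1, 72.6 and 101 CPM, and rose by 1.67 ± 0.20. *Impact*, an inhibitor of the kinase GCN2, was at 16.6, 18.4, 14.9 and 14.3 CPM and at 24.1, 40.1 and 62.02 CPM, and rose by 1.51 ± 0.21. *Inpp5f*, an inositol phosphatase, rose by 1.28 ± 0.21, and *Ube3a*, a ubiquitin ligase, rose by 0.67 ± 0.13; none of these 5 genes had an adult within the fetal range. *Peg3* (0.02 ± 0.21), *Plagl1* (-0.33 ± 0.43) and *Rasgrf1* (0.52 ± 0.26) were not called. Counts are per gene, so the fall of *Gnas* cannot be assigned to a single transcript. The library kit does not mark strand, and several of these imprinted genes share ground with another. *Nnat* lies within *Blcap*, *Nap1l5* within *Herc3*, *Mest* beside *Copg2*, *Ube3a* opposite *Snhg14*. *Gnas* overlaps *Gnasas1*, and *Snrpn* overlaps *Snhg14* and *Snurf*. Reads from such partners cannot be told apart by strand; *Herc3* was at 0.14 ± 0.28 and not called. *Copg2* was at 0.50 ± 0.27 and not called, but was called in the TRIzol libraries (1.28, adjusted p = 0.00584), without E18.5 1 (0.90) and with voom. *Blcap* was at -0.27 ± 0.11, with a call lost in 20 of 38 alternatives, the TRIzol libraries among them (adjusted p = 0.164 without E18.5 1). In the TRIzol libraries 10 rose and 8 fell, and *Mest* and *Peg10* were not called.

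**Figure D2:**
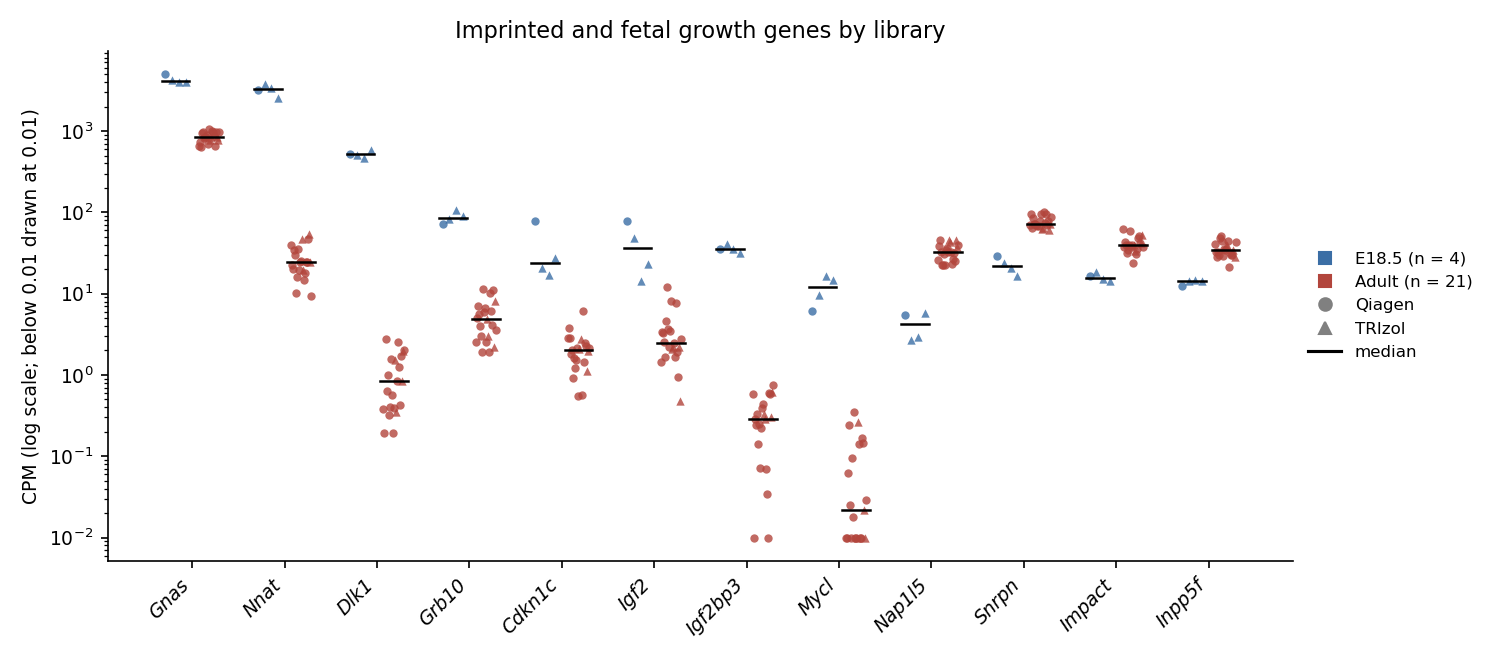
CPM of each library on a log axis for 8 imprinted or growth genes that fell and 4 imprinted genes that rose, E18.5 in blue and adults in red, with Qiagen libraries as circles, TRIzol libraries as triangles, the median as a line and values below 0.01 drawn at 0.01. The groups do not overlap in any of the 12 genes, with *Gnas* at 640.1 CPM or more in every library.

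Beside *Igf2*, most called genes of the insulin-like growth factor axis and of the fetal RNA-binding proteins fell. Of 23 genes of this axis tested, 2 rose and 12 fell, with a median of -1.495. All 3 members of the IGF2BP family, which bind *Igf2*, *Myc* and other messengers in fetal tissue, fell. *Igf2bp3* was at 35.8, 40.4, 35.2 and 31.7 CPM and at 0, 0.287 and 0.748 CPM, *Igf2bp2* at 19.9, 22.5, 27 and 38.2 CPM and 0, 0.386 and 1.54 CPM, and *Igf2bp1* at 2.97, 9.16, 8.67 and 8.78 CPM and at most 0.0926 CPM in an adult. The changes were -6.78 ± 0.50, -5.76 ± 0.57 and -7.62 ± 0.84, and no adult reached 2 CPM in any of the 3. *Myc*, the growth factor-responsive transcription factor, stood at 20.6, 26.29, 27.4 and 59.5 CPM and at 1.05, 2.93 and 8.70 CPM, and fell by 3.20 ± 0.37; its relative *Mycl* was at 6.11, 9.70, 16.3 and 14.6 CPM and at most 0.353 CPM. The binding proteins *Igfbp7* and *Igfbp2* fell by 1.80 ± 0.24 and 6.58 ± 0.73, the former from 214, 156, 154 and 136.2 CPM. *Lin28b*, a fetal RNA-binding protein, had 3 counts over E18.5 and 4 over the adults and was not tested. Its relative *Lin28a* was at 0.132, 0, 0.0352 and 0.0364 CPM and at 0.101, 0.305 and 1.23 CPM and rose by 3.01 ± 1.05, a call lost in the TRIzol libraries and without E18.5 2, 3 or 4 (2.62, adjusted p = 0.0751, without E18.5 2). The receptor *Igf1r* rose by 0.96 ± 0.30, a call that was lost in the TRIzol libraries and without E18.5 1 (0.85, adjusted p = 0.0585), and *Insr*, the insulin receptor, was at -0.04 ± 0.37 and not called. With any 1 E18.5 library left out, 1 member of the list rose.

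Genes of the Notch pathway and of endocrine progenitors were called about as often as all genes. Of 28 genes of the Notch pathway and of endocrine progenitors tested, 2 rose and 7 fell, with a median of -0.54; 32.1% of them were called, against 34.8% of all genes tested. *Mfng*, a glycosyltransferase that modifies Notch receptors, was at 35.9, 40.03, 44.5 and 33.01 CPM and at 0, 0.503 and 1.11 CPM, and *Fev*, a factor of late endocrine precursors, at 19.1, 19.49, 19.6 and 17.8 CPM and at 0.0339, 0.791 and 2.97 CPM. Both were far below their fetal range in every adult. *Sox4* and *Sox11*, related factors of progenitor cells, fell by 1.53 ± 0.36 and 4.78 ± 1.15, the first with its highest value in E18.5 4 (129 CPM against 37.3 to 63.02 CPM in the other E18.5 libraries). *Runx1t1*, a corepressor of endocrine differentiation, fell by 1.48 ± 0.40. *Neurog3* itself, the factor that starts endocrine differentiation, was at 3.33, 1.68, 1.32 and 1.09 CPM and at 0, 0.777 and 3.18 CPM (-1.10 ± 0.75, not called), and *Sox9* was at -1.62 ± 0.77, not called. The receptors *Notch1* (-0.21 ± 0.24) and *Notch2* (-0.54 ± 0.94) and the ligand *Jag1* (-0.88 ± 0.70) were not called either. *Sox9*, however, was called lower with a term for the acinar level (-3.89, adjusted p = 4.7e-07) and with voom (-2.15, adjusted p = 0.000478). It was also called lower in the adults at or below the median acinar share (adjusted p = 0.0185) and from the 25 libraries alone (adjusted p = 0.0237). Without E18.5 1 or E18.5 2, and with a term for the acinar level, 1 member rose instead of 2. *Sox11* was not called in the TRIzol libraries.

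Genes of mitosis and DNA replication fell almost without exception. Of 38 genes of mitosis and DNA replication tested, 37 fell and none rose, with a median of -3.10, and 36 of the 38 had every adult below every E18.5 library. *Cdk1*, the kinase of mitotic entry, was at 71.5, 55.6, 47.7 and 51.8 CPM and at 1.29, 4.87 and 15.8 CPM, and fell by 3.59 ± 0.40. *Ccnb2*, a mitotic cyclin, was at 50.3, 48.9, 51.1 and 53.01 CPM and at 0.818, 3.11 and 8.41 CPM, and fell by 4.16 ± 0.49 (adjusted p = 1.16e-09). *Top2a*, the topoisomerase of dividing cells, was at 39.11, 61.9, 69.7 and 69.2 CPM and at 1.29, 5.05 and 21.7 CPM, and fell by 3.40 ± 0.44. All 3 had reads in each of the 21 adults, and no adult came within the fetal range. Among genes of the replication fork, *Mcm7* and *Mcm2*, parts of the replicative helicase, fell by 1.25 ± 0.17 and 1.08 ± 0.24, and *Pcna*, the sliding clamp, by 0.77 ± 0.14, the last not called in the TRIzol libraries. The exception in the list was *Tyms*, thymidylate synthase, at -0.47 ± 0.23 (adjusted p = 0.0991). Counts of members that fell were 36 to 38 under the other tools, scalings and acinar settings, 33 among the TRIzol libraries and 35 among the Qiagen libraries.

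The promoters of these genes are shown because their cell cycle elements are well known: CCAAT boxes, bound by NF-Y, and the cell cycle homology region, TTTGAA, bound by complexes that repress such genes in resting cells. A search of both strands of the 250 bases before each start found CCAAT in 24 of the 30 list genes with a RefSeq promoter (80%), against 40% of 12746 tested genes. TTTGAA was found in 8 of 30 (26.7%, against 13.6%), and an E2F site, searched as TTTGGCGC, TTTCCCGC or TTTCGCGC, in 5 of 30 (16.7%, against 3.0%). A gene with several starts counted where any of its windows held the motif, and no motif searched contains another. A match describes letters only, not binding. For the windows printed next, only each gene's first window was used, and members on a single chromosome were left out. Of the remaining members, the 3 of smallest adjusted p whose last 120 bases before the start hold both CCAAT and TTTGAA are printed. They run 5′ to 3′ on the gene's strand (RefSeq, GRCm38.p6), with matches to the 3 motifs on either strand in capitals.
*Cdk1* (chr10:69352913-69353032, minus strand): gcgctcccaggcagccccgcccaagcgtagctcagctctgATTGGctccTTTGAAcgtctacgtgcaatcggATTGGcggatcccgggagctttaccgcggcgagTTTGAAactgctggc
*Cdc20* (chr4:118437344-118437463, minus strand): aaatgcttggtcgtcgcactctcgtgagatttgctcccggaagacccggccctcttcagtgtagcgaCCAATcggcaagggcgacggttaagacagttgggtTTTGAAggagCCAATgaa
*Top2a* (chr11:99024190-99024309, minus strand): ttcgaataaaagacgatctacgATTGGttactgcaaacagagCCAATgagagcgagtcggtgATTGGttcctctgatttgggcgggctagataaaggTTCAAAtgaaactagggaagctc
*Cdc20*, the activator of the anaphase ubiquitin ligase, was at 61.8, 60.8, 57.3 and 63.7 CPM and at 1.39, 5.97 and 16.8 CPM, and fell by 3.39 ± 0.38. The windows of *Cdk1* and *Cdc20* hold 2 CCAAT boxes each and that of *Top2a* holds 3, in which ATTGG is the box read on the other strand.

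The regulators above mitosis moved less uniformly. Of 29 cyclins, cyclin-dependent kinases and their inhibitors tested, 3 rose and 11 fell, with a median of -0.38, and without E18.5 1 7 fell and 1 rose. *Cdk4*, the kinase partner of D cyclins, was at 240.2, 198, 189 and 195 CPM and at 105.6, 126 and 159.8 CPM, and fell by 0.73 ± 0.11, with no overlap of the groups. *Cdk2*, the kinase of S phase, was at 9.09, 9.45, 8.70 and 8.13 CPM and at 0.882, 1.83 and 4.23 CPM, and fell by 1.97 ± 0.38. *Cdk5*, a kinase of postmitotic cells, was at 24.42, 24.37, 23.46 and 25.1 CPM and at 30.7, 43.04 and 58.6 CPM, and rose by 0.83 ± 0.14, so kinases of the same family changed in opposite directions. The repressors *E2f7* and *E2f8* fell by 2.60 ± 0.50 and 3.70 ± 0.79, and *Cdkn2d*, the inhibitor p19, fell by 0.93 ± 0.18. *Ccnd2*, the main D cyclin of beta cells, rose by 0.82 ± 0.24 with overlapping groups and lost its call in the TRIzol libraries and without E18.5 1 (0.71, adjusted p = 0.0511). *Ccnd1* (0.93 ± 0.53), *Cdkn1a* (0.40 ± 0.28), *Cdkn1b* (-0.38 ± 0.31) and *Cdkn2a*, the p16 gene linked to age (1.11 ± 1.12, at most 0.266 CPM in an adult), were not called. *E2f8* was not called in the TRIzol libraries.

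More chromatin genes fell than rose, and Polycomb genes changed in opposite directions. Of 33 genes of chromatin and DNA methylation tested, 4 rose and 16 fell, with a median of -0.60. Among high mobility group genes, which loosen or bend chromatin, *Hmgb2* was at 104.9, 90.9, 110.9 and 163.9 CPM and at 5.15, 12.7 and 25.3 CPM (-3.29 ± 0.27), *Hmgn2* at 1098, 908, 988 and 898 CPM and 126, 270.1 and 319 CPM (-1.91 ± 0.17), and *Hmgb1*, *Hmgb3* and *Hmgn1* changed by -0.75 ± 0.13, -1.43 ± 0.23 and -0.88 ± 0.14. None of these 5 genes had an adult within the fetal range. *Dnmt3a*, the methyltransferase that sets new DNA methylation, was at 135, 285, 334 and 251 CPM and at 39.4, 63.4 and 114.6 CPM, and fell by 1.87 ± 0.21. *Dnmt1* and its partner *Uhrf1*, which copy methylation at replication, fell by 0.89 ± 0.23 and 2.33 ± 0.46. In the Polycomb group, *Ezh2*, the H3 methyltransferase of dividing cells, was at 10.4, 10.1, 7.75 and 9.82 CPM and at 1.47, 3.82 and 9.36 CPM, and fell by 1.40 ± 0.33, while *Ezh1*, its counterpart in resting cells, rose by 1.28 ± 0.20. *Cbx2* fell by 1.67 ± 0.39 and *Cbx7*, another reader of the same mark, was at 1.62, 2.55, 2.27 and 2.06 CPM and at 8.14, 15.4 and 20.5 CPM, and rose by 2.86 ± 0.30. *Suz12* (-0.23 ± 0.16) and *Eed* (-0.13 ± 0.14), core subunits shared by both complexes, were not called. *Ezh2*, *Cbx2*, *Dnmt1* and *Uhrf1* lost their calls in the TRIzol libraries, where 3 rose and 12 fell. Without E18.5 4, 2 members rose.

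Genes of neurites and microtubules, which beta cells share with neurons, fell in most members. Of 25 neurite and microtubule genes tested, 4 rose and 15 fell, with a median of -1.52. *Stmn1*, a protein that destabilises microtubules, was at 192, 182, 172 and 151 CPM and at 5.82, 17.8 and 41.7 CPM, and fell by 3.25 ± 0.29. *Marcksl1*, an actin-binding substrate of protein kinase C, was at 51.5, 38.8, 38.3 and 45.39 CPM and at 2.39, 2.995 and 10.4 CPM, and fell by 3.82 ± 0.37. Tubulins fell too, *Tubb3* by 2.22 ± 0.23, *Tubb2a* by 1.52 ± 0.18 and *Tuba1a* by 1.12 ± 0.16. Exceptions were *Stmn3*, a stathmin of mature neurons, which was at 9.05, 4.95, 2.48 and 3.35 CPM and at 24.1, 40.5 and 65.1 CPM and rose by 3.06 ± 0.30, and *Ina*, a neurofilament protein, which rose by 2.69 ± 0.25. The E18.5 libraries were not alike in part of this list: *Stmn2* was at 13.98, 9.30, 0.775 and 1.46 CPM, *Gap43* at 10.3, 8.25, 0.951 and 1.93 CPM and *Nefl* at 8.05, 6.54, 0.370 and 0.564 CPM, so E18.5 1 and 2 lay above E18.5 3 and 4 in each. *Stmn2*, a stathmin of growing neurites, fell by 4.62 ± 0.98, *Gap43*, a growth cone protein, fell by 1.90 ± 0.48 and *Nefl*, a neurofilament, fell by 4.12 ± 1.05. Schwann cell markers held 0.000122 to 0.000411% of counts in these 4 libraries, and the part of other cells in the difference was not tested. *Gap43* and *Nefl* were not called in the TRIzol libraries.

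Regulators of RNA known from neurons were called about as often as all genes. Of 30 genes tested in the list of neuron-type RNA-binding and splicing regulators, 7 rose and 3 fell, with a median of 0.10. The list was called in 33.3% of its members, against 34.8% of all genes tested. Its 7 rises include a clathrin assembly protein of synaptic vesicles, which is not a regulator of RNA. *Celf6*, a splicing and stability factor, was at 5.91, 7.81, 7.94 and 7.47 CPM and at 20.6, 30.24 and 40.6 CPM, and rose by 2.06 ± 0.22. *Rbfox1* rose by 4.05 ± 0.84 from less than 1 CPM, *Mbnl1*, which drives adult splicing patterns in other tissues, rose by 1.12 ± 0.22, and *Celf4* and *Elavl4* rose by 1.06 ± 0.23 and 1.11 ± 0.28. *Ptbp1*, the repressor of neuronal exons, fell by 0.77 ± 0.16 and *Esrp2*, an epithelial splicing factor, fell by 1.53 ± 0.32. *Rest*, the repressor of neuronal genes, was at -1.55 ± 0.81 and not called. It was called lower with a term for the acinar level (-2.63, adjusted p = 0.00204) and with voom (adjusted p = 0.0303). The adults at or below the median acinar share also gave a call for *Rest* (adjusted p = 0.0459). Of 38 genes of guidance, adhesion and gap junctions tested, 6 rose and 8 fell, with a median of 0.01. Here too the share called, 36.8%, was near that of all genes tested, 34.8%. Surface proteins that rose without overlap were *Efna5*, an ephrin, from 1.26, 1.66, 0.933 and 1 CPM to 5.37, 10.03 and 16.96 CPM (3.06 ± 0.41), and the cadherins *Cdh8* and *Cdh7*, 2.33 ± 0.34 and 2.22 ± 0.49. *Cldn4*, a tight junction protein, fell from 33.8, 31.8, 48.9 and 34.9 CPM to 0, 2.27 and 10.2 CPM (-5.26 ± 0.66), and *Slit2*, a secreted guidance cue, fell by 5.177 ± 0.90. *Epha5*, the ephrin receptor that pairs with ephrin A5, was below 1 CPM in all E18.5 libraries and fell by 5.72 ± 1.23. *Cdh1* (-0.34 ± 0.29) and *Gjd2*, the connexin of beta cells (0.38 ± 0.40), were not called.

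In glycolysis, enzymes that share a reaction changed in opposite directions. Of 23 genes of glycolysis and lactate handling tested, 5 rose and 11 fell, with a median of -0.40; without E18.5 1, 7 fell. *Eno1*, the enolase of most tissues, was at 316, 242, 235 and 233 CPM and at 111.7, 147 and 221 CPM, and fell by 0.82 ± 0.17. *Eno2*, the enolase of neurons and endocrine cells, was at 3.22, 2.53, 2.41 and 4.49 CPM and at 46.25, 76.1 and 109.6 CPM, and rose by 4.86 ± 0.34 (adjusted p = 5.61e-18). Among phosphofructokinases, *Pfkl*, the liver type, fell by 0.85 ± 0.21, whereas *Pfkp* and *Pfkm*, the platelet and muscle types, rose by 2.10 ± 0.38 and 0.80 ± 0.16, each without overlap. *Pfkfb2*, which makes the activator of phosphofructokinase, rose by 1.15 ± 0.21. *Gapdh* (-0.68 ± 0.14), *Tpi1* (-0.55 ± 0.12) and *Pgam1* (-0.49 ± 0.11) fell and *Aldoa* rose (0.63 ± 0.12), with E18.5 1 the highest fetal library for each of the 4. *Ldha*, the lactate dehydrogenase that beta cells keep low, was at 54.99, 15.4, 6.22 and 26.7 CPM and at 0.557, 6.55 and 25.16 CPM, and its call was lost without E18.5 1 (-1.78, adjusted p = 0.0547). In the TRIzol libraries 5 rose and 4 fell, and *Gapdh*, *Tpi1*, *Pgam1* and *Ldha* were not called.

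Of 30 genes of the citrate cycle and its supply of pyruvate tested, 4 rose and 12 fell, with a median of -0.16. *Pdhb*, a subunit of pyruvate dehydrogenase, was at 172.9, 137, 143.2 and 126 CPM and at 59.9, 89.8 and 107.1 CPM, and fell by 0.82 ± 0.14, and the isocitrate dehydrogenases *Idh2* and *Idh3a* fell by 0.75 ± 0.13 and 0.68 ± 0.17. *Me3*, a mitochondrial malic enzyme, fell by 2.96 ± 0.52 while *Me1*, the cytosolic one, rose by 0.78 ± 0.25; none of these 5 genes had an adult within the fetal range. *Sdha*, of succinate dehydrogenase, rose by 0.58 ± 0.16 while *Sdhb*, of the same complex, fell by 0.63 ± 0.16. The carriers of pyruvate *Mpc1* (-0.05 ± 0.17) and *Mpc2* (-0.04 ± 0.18) were not called. Without E18.5 1, 2 or 4, 2 members rose. In the TRIzol libraries 5 rose and 6 fell, and *Idh3a* and *Sdhb* were not called. Of 30 genes of sterol and fatty acid synthesis tested, 2 rose and 6 fell, with a median of -0.20. Fewer of them were called, 26.7%, than of all genes tested, 34.8%. *Mvd* and *Fdps*, of cholesterol synthesis, fell by 1.48 ± 0.20 and 1.08 ± 0.18, *Fasn*, fatty acid synthase, fell by 1.15 ± 0.20, and *Fads1*, a desaturase, was at 26.1, 28.96, 33.38 and 38.4 CPM and at 48.6, 78.8 and 140.4 CPM, and rose by 1.28 ± 0.22. The master regulators *Srebf1* (0.21 ± 0.21) and *Srebf2* (-0.12 ± 0.26) were not called. Without E18.5 1, 2 or 3, 1 member rose.

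Of 26 genes of one-carbon, serine and amino acid supply tested, 5 rose and 5 fell, with a median of 0.01. That is 38.5% called, against 34.8% of all genes tested. *Cbs*, which turns homocysteine and serine into cystathionine, was at 2.41, 1.49, 1.53 and 5.20 CPM and at 51.8, 69.96 and 99.3 CPM, and rose by 4.55 ± 0.45 (adjusted p = 2.90e-12). *Aldh1l2*, a mitochondrial folate enzyme, was at 2.16, 2.13, 2.75 and 1.24 CPM and at 14.2, 23.47 and 69.3 CPM, and rose by 3.41 ± 0.44. *Shmt1*, the cytosolic enzyme that passes carbon from serine to folate, was at 10.3, 10.04, 7.84 and 10.5 CPM and at 0.498, 1.66 and 3.52 CPM, and fell by 2.41 ± 0.30. These 3 separate the groups completely. *Slc38a1*, a glutamine carrier, fell by 5.49 ± 0.80, and *Slc38a5*, another carrier of the same family, was at 916, 645, 623 and 547 CPM and at 0.840, 11.8 and 71.8 CPM, and fell by 6.001 ± 0.68. *Shmt2* (-0.16 ± 0.19), *Psat1* (-0.09 ± 0.30) and *Mthfd2* (0.21 ± 0.21), of mitochondrial serine use, were not called.

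**Figure D3:**
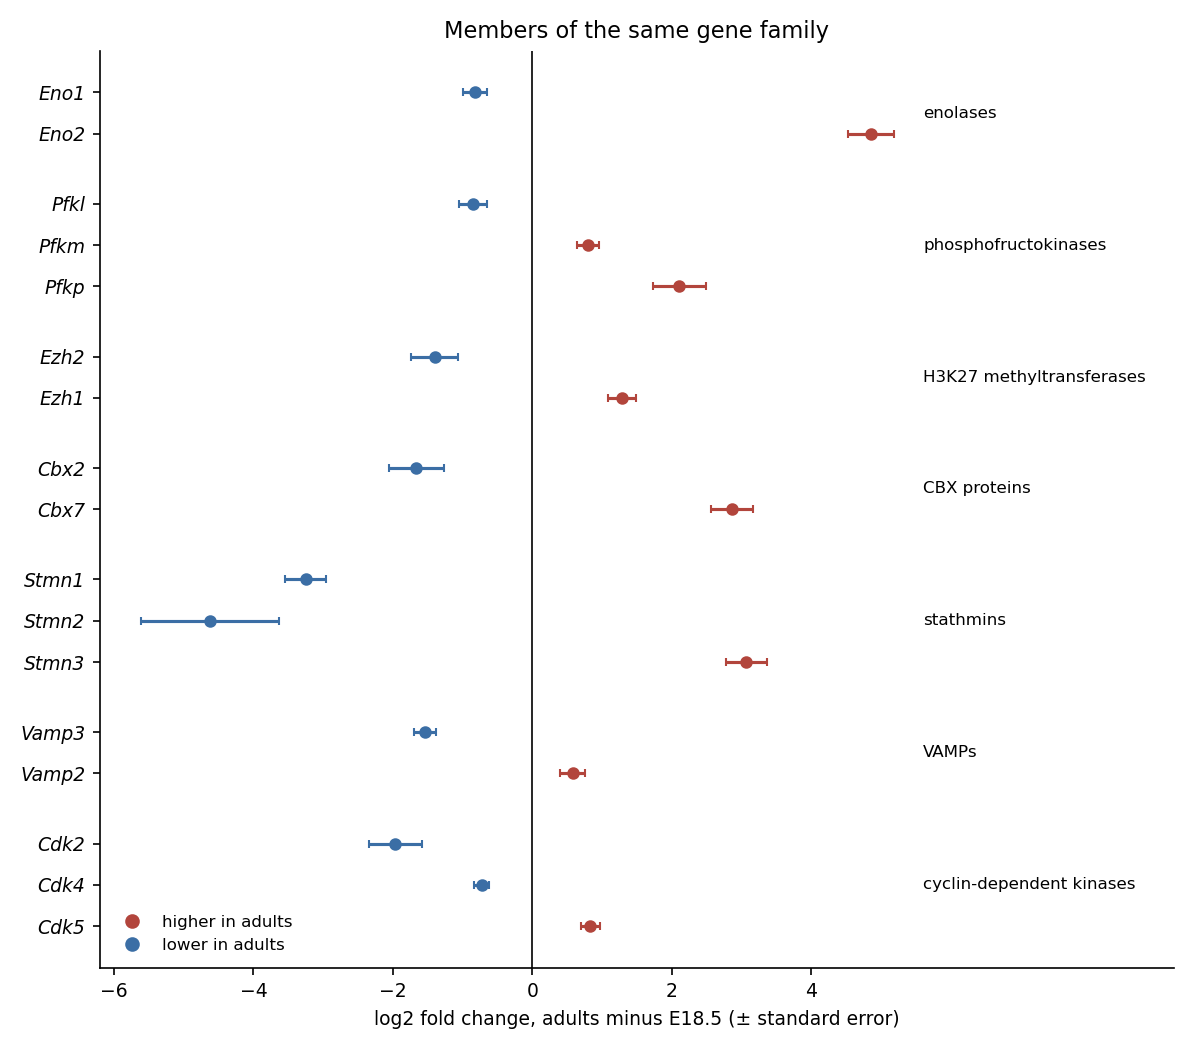
Log2 fold changes, adults minus E18.5, with standard errors for members of 7 gene families, red where called higher and blue where called lower. Families with members on either side of 0 include the enolases (*Eno1* -0.82, *Eno2* 4.86) and the CBX proteins (*Cbx2* -1.67, *Cbx7* 2.86); the families were chosen after their values were seen.

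More genes of folding and export of secretory proteins fell than rose, and more genes of the ATF4 arm of the stress response rose than fell. Of 29 genes of folding and export tested, 2 rose and 12 fell, with a median of -0.36. *Pdia4*, a disulfide isomerase, was at 704, 748, 789 and 686 CPM and at 145.1, 282 and 569.1 CPM, and fell by 1.32 ± 0.23. *Hsp90b1*, the HSP90 of the endoplasmic reticulum, was at 1674, 1831, 1863 and 1964 CPM and at 788, 1078 and 1632 CPM, and fell by 0.74 ± 0.17; in both genes every adult lay below the fetal range. *Creld2* fell by 1.58 ± 0.35 and *Dnajb11* fell by 1.13 ± 0.22, with overlap. *Ern1*, the sensor IRE1, was at 11.7, 15.1, 14.9 and 15.1 CPM and at 30.9, 42.18 and 83.3 CPM, and rose by 1.62 ± 0.24. Against these 12, 6 members fell with a term for the acinar level, 8 in the 11 adults at or below the median acinar share, 7 without the extraction term, 8 in the TRIzol libraries and 0 in the Qiagen libraries; without E18.5 4, 1 rose. *Sec61a1* (-0.22 ± 0.21), *Xbp1* (0.22 ± 0.14) and *Atf6* (0.23 ± 0.23) were not called. Of 18 genes of the ATF4 arm tested, 8 rose and 1 fell, with a median of 0.72. Without E18.5 3, 5 rose. Rises numbered 6 with a term for the acinar level and 7 in the adults at or below the median acinar share. They numbered 6 with median-ratio factors, 5 in the TRIzol libraries and 9 with DESeq2. *Trib3*, a pseudokinase, was at 1.26, 2.15, 1.29 and 1.76 CPM and at 4.28, 9.11 and 25.19 CPM. *Ddit3*, the factor CHOP, was at 15.6, 9.85, 7.89 and 13.04 CPM and at 21.98, 31.3 and 55.5 CPM, and rose by 1.29 ± 0.22, and *Chac1*, a glutathione-degrading enzyme, rose by 1.84 ± 0.42. *Nupr1*, a stress factor that acinar cells also express, was at 4.37, 1.12, 0.775 and 5.64 CPM and at 5.74, 135.5 and 659.6 CPM, and rose by 4.79 ± 1.17. *Stc2*, a secreted stress protein, fell by 3.13 ± 0.89 and was not called in the TRIzol libraries.

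Nuclear receptors and clock genes were called about as often as all genes, and more of the called members rose than fell. The shares called were 36.1% and 36.4%, against 34.8% of all genes tested. Of 36 nuclear receptors and coactivators tested, 11 rose and 2 fell, with a median of 0.60; without E18.5 4, 7 rose, and 4 fell without Adult 10 but 1 without E18.5 1 or Adult 19. *Pparg*, the lipid-sensing receptor, was at 0.677, 0.267, 0.141 and 0.364 CPM and at 1.51, 3.70 and 7.37 CPM, and rose by 3.43 ± 0.43. *Nr3c2*, the mineralocorticoid receptor, was at 0.282, 0.229, 0.652 and 0 CPM and at 1.33, 3.92 and 7.65 CPM, and rose by 3.53 ± 0.61, and *Rarg*, a retinoic acid receptor, rose by 2.26 ± 0.43. The 3 genes had no adult within the fetal range, although all lie at a few CPM. *Nr1h2*, the liver X receptor beta, rose by 0.95 ± 0.15 with overlap. *Esr1*, the estrogen receptor, was at 0, 0.0191, 0 and 0.127 CPM and at 0.0352, 1.003 and 5.25 CPM, and rose by 6.36 ± 1.49. *Esrrg*, the estrogen-related receptor linked to beta cell maturation, rose by 1.47 ± 0.58 (adjusted p = 0.0429), a call lost in 9 of 38 alternatives, each E18.5 library left out and the TRIzol libraries among them (adjusted p = 0.101 without E18.5 1). *Thrb* (0.73 ± 0.56) and *Thra* (0.11 ± 0.28), the thyroid hormone receptors, were not called. Of 22 clock genes tested, 6 rose and 2 fell, with a median of 0.37. *Rora*, an activator within the clock, was at 15.6, 20.9, 24.8 and 29.7 CPM and at 31.9, 41.09 and 60.1 CPM, and rose by 0.88 ± 0.14. *Clock* and its relative *Npas2*, which form the positive limb with *Arntl*, rose by 0.85 ± 0.21 and 3.49 ± 0.84. *Arntl* rose by 0.94 ± 0.32, a call lost without E18.5 2 (adjusted p = 0.0621) or E18.5 3 (0.0665). It was also lost without the extraction term (0.69, adjusted p = 0.102). A term for S numbers above 60, described in the closing section, removed it as well (adjusted p = 0.0729). Without E18.5 1, E18.5 4, Adult 8 or Adult 13, 1 clock gene fell. *Per1* (-0.42 ± 0.33), *Per2* (0.28 ± 0.36), *Cry1* (0.22 ± 0.30) and *Nr1d1* (-0.32 ± 0.56) were not called, and the time of day of tissue collection is not given in the labels used here.

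Immediate early genes, which respond within minutes to stimuli and to the handling of cells, were in the majority higher at E18.5, with 2 of its libraries above the other 2. Of 25 immediate early and dissociation genes tested, 3 rose and 14 fell, with a median of -1.01. *Fos* was at 641, 153, 159.4 and 704 CPM and at 6.24, 20.1 and 75.1 CPM, and fell by 4.14 ± 0.46, with no overlap. *Egr1* was at 218, 65.98, 70.3 and 359.5 CPM and at 4.07, 11.4 and 67.7 CPM, and fell by 3.25 ± 0.45. *Dusp1*, a phosphatase of MAP kinases, was at 146.5, 32.2, 39.5 and 293 CPM and at 8.27, 17 and 55.6 CPM, and fell by 2.58 ± 0.39. E18.5 1 and 4 were the 2 highest fetal libraries for 15 of the 25 list members. The matching share of all tested genes was not computed. The inducible heat shock genes *Hspa1b* and *Hspa1a* went the other way and rose by 2.44 ± 0.61 and 2.36 ± 0.70. The latter was not called without the extraction term (adjusted p = 0.0734). The part of cell handling in these differences was not tested.

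**Figure D4:**
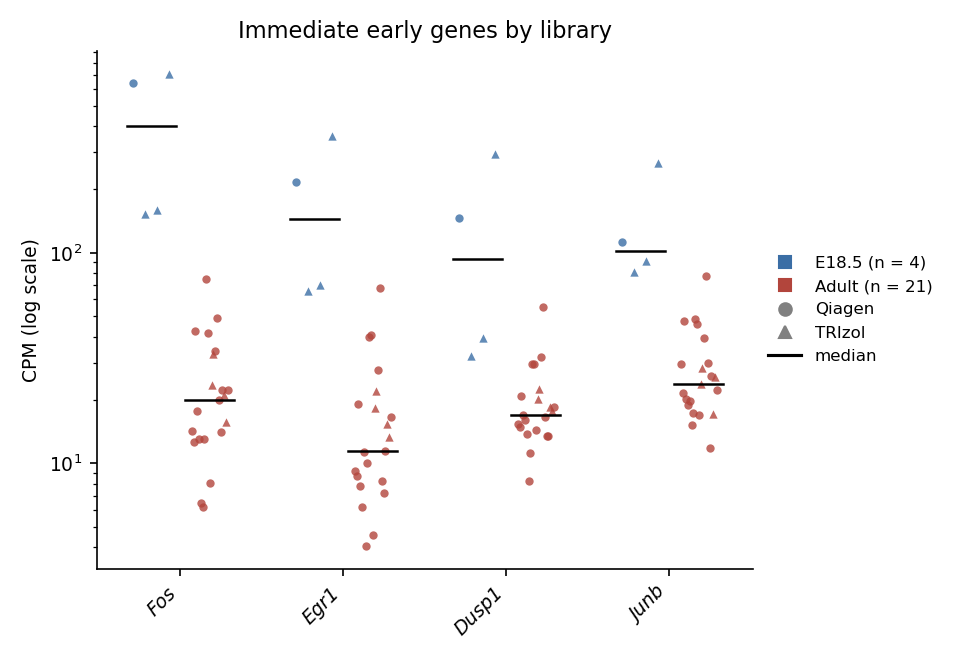
CPM of 4 immediate early genes in each library on a log axis, E18.5 in blue and adults in red, Qiagen libraries as circles, TRIzol libraries as triangles and medians as lines. E18.5 1 and 4 stand above E18.5 2 and 3 in each gene, and for *Fos* the lowest E18.5 library, at 152.6 CPM, stays above the highest adult, at 75.1 CPM.

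The largest changes without overlap, among genes whose higher group averaged 10 CPM or more, held further genes outside these lists. *Lgi1*, a secreted synaptic protein, was at 0.677, 0, 0.123 and 0.0364 CPM and at 9.79, 13.5 and 27.8 CPM, and rose by 6.16 ± 0.56. *Tmem59l*, a membrane protein of neurons, was at 2.39, 1.07, 0.845 and 1.25 CPM and at 22.1, 36.9 and 121.2 CPM. *Aox1*, aldehyde oxidase, was at 0.113, 0.438, 0.511 and 0.818 CPM and at 4.61, 17.7 and 46.7 CPM, and rose by 5.81 ± 0.80. *Gbp8* and *Gbp11*, of the interferon-inducible GTPases, rose by 5.85 ± 0.81 and 6.35 ± 1.09, from 1.35, 1.07, 0.933 and 1.02 CPM for the first; these genes have near-identical copies, so the authors' counting could split reads between them. *H2-Aa*, of MHC class II, was at 0.470, 0.229, 0.335 and 0.527 CPM and at 2.37, 14.01 and 53.5 CPM, and rose by 5.14 ± 1.07. *Vtn*, vitronectin, rose by 5.52 ± 1.53, and was not called in the TRIzol libraries or in the adults of low acinar share (adjusted p = 0.0645). Among the falls, *Spsb4*, a ubiquitin ligase adaptor, was at 32.9, 31.6, 24.1 and 37.01 CPM and at 0, 0.463 and 1.95 CPM, and fell by 5.76 ± 0.53, and *Itm2a*, a membrane protein, fell by 5.88 ± 0.83.

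Markers of other cell types moved as well. Of 20 acinar genes 17 rose and none fell, and the groups overlapped in all 20. Stromal genes held 0.0320 to 0.0528% of counts at E18.5 and 0.00356 to 0.0118% in adults, and 11 of 14 fell. Duct genes held 0.147 to 0.185% and 0.0464 to 0.142%, with 4 of 12 lower. Erythroid genes reached 0.0618% in 1 E18.5 library and at most 0.00454% in an adult, with 4 of 6 tested members lower. Alpha cell genes held 0.126 to 0.250% at E18.5 and 0.0433 to 0.642% in adults. Every gene of the 11 marker lists that the table holds had a count in both groups, apart from 1 erythroid gene at 0 at E18.5, and 1 listed lymphoid gene was not analysed here; the part of other cells in the differences above was not tested. Beta cell markers held 27 to 37.6% and 20.5 to 59.0%, so the defining markers of beta cells were present in both groups. With a term for the acinar level 5448 genes were called, and 5021 in the 11 adults at or below the median acinar share.

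**Figure D5:**
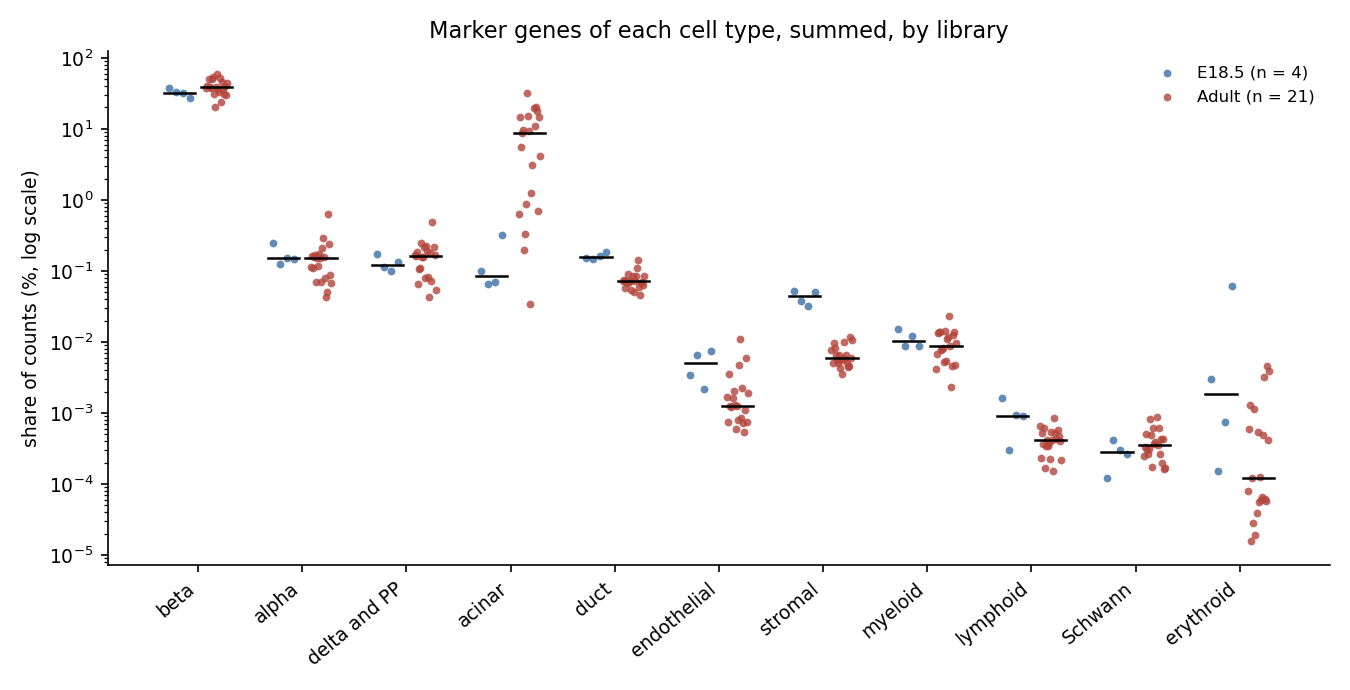
Share of counts held by each marker list in each library, on a log axis, with E18.5 in blue, adults in red and medians as lines. The adult acinar shares spread from 0.0338 to 32.3%, and the stromal shares of the groups do not overlap.

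Within the 21 adults, the age of the animal was fitted with terms for sex and extraction. Of the TRIzol adults, all female, Adult 12, 13 and 19 were 289 days old and Adult 20 was 136 days old. Age, sex and extraction are therefore linked and cannot be fully told apart. Of 14524 genes tested, 12 (0.0826%) were called, 7 higher (0.0482%) and 5 lower (0.0344%) with age, and 1826 had an unadjusted p under 0.05. *Tmem59l* rose by 0.63 ± 0.11 per 100 days (adjusted p = 0.0207), the direction of its change since E18.5. *Clip4* and *Timp2*, an inhibitor of matrix proteases, rose by 0.79 ± 0.13 and 0.45 ± 0.08, and *Rftn2*, *Nav2* and *Qser1* changed by -3.55 ± 0.55, -0.60 ± 0.11 and -0.72 ± 0.12. *Mki67*, an antigen of dividing cells, was at -1.10 ± 0.40 (adjusted p = 0.256) and *Ucn3* at 0.08 ± 0.08 (adjusted p = 0.692), neither called, and *Cdkn2a* did not pass the filter on low counts. Without the adult of 364 days 2 genes were called, *Rftn2* and *Kazald1*.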

How the data were processed

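The authors deposited expected counts per gene for 63 libraries, and per the submitters' processing notes bcl2fastq 2.20.0.422, Bowtie 1.2.2, RSEM 1.3.0 and mm10 were used. Per the labels' protocols, islets were purified on Histopaque, dissociated and sorted for mCherry, and libraries were made with SMART-Seq v4 and Nextera XT, which do not mark strand. Of the values, 48.5% were not whole, and all were rounded. Of 20306 genes, 16092 passed filterByExpr. edgeR 4.0.16 (R 4.3.3) was fitted to all 63 libraries with TMM factors, 9 group means and an extraction term, with a robust quasi-likelihood test of adults against E18.5 and Benjamini-Hochberg adjustment over all tested genes. Standard errors were derived from the F statistic. Expected counts share reads between related genes by estimate, so close copies are less certain. On simulated counts with the same groups (15786 genes), 53 of 100 genes changed by 1 on the log2 scale and 82 of 100 changed by 2 were recovered, with 7 false calls. Apart from these changes, each simulated gene had the same mean in every group, with no extraction or acinar differences. The 7 false calls therefore do not measure the error of the real comparison.

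The members, the 24 gene lists and 11 marker lists were chosen with earlier results of these data known. Named genes were the 10 largest called changes in each direction among genes without overlap whose higher group averaged 10 CPM or more, and up to 4 called members of each list in each direction by smallest p. Further genes, mostly members not called, relatives of a named gene and fixed anchors, were added with their values known. Promoter windows came from RefSeq (GRCm38.p6). Alternatives, given in the closing section, used DESeq2 1.42.0, limma 3.58.1 (voom), other factors, filters, terms and sets of libraries. The other 38 libraries of the series entered the fit and are not described. A few genes that count in the lists are not reported here by name.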

Additional observations from a re-analysis of the deposited data

Results flagged for a closer look

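In each item below 1 of the 4 E18.5 libraries lay far from the other 3, by a gap that took up most of the range of the group. In 244 genes and 11 marker lists checked, 24 genes and 2 lists met this rule, and chance gives about 1 in 20. E18.5 1 was the library apart in 14 of them, E18.5 4 in 8, E18.5 2 in 3 and E18.5 3 in 1. E18.5 1 is the library extracted with the Qiagen column, and its distance from the TRIzol libraries and other differences between samples cannot be told apart here.

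E18.5 1 was the high library for *Cdkn1c* (79.03 CPM against at most 27.2), *Ghrl* (21.7 against at most 6.24), *Eno1* (316 against at most 242), *Isl1* (152 against at most 99.4), *Mdh2* (474 against at most 328), *Resp18* (130.4 against at most 75.8), *Scg5* (734 against at most 572.7) and *Stc2* (6.83 against at most 4.78). It was the low library for *Glp1r* (24.2 CPM against at least 54.4), *Igf2bp1* (2.97 against at least 8.67), *Mki67* (37.5 against at least 64.6), *Ern1* (11.7 against at least 14.9), *Sec61a1* (397 against at least 436) and *Syt3* (11.4 against at least 15.2).

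E18.5 4 was the high library for *Gipr* (49.6 CPM against at most 17.5), *Nr1d1* (94.4 against at most 20.1), *Maoa* (7.46 against at most 4.97), *Jag1* (2.56 against at most 1.24) and *Esr1* (0.127 against at most 0.0191), and the low library for *Prlr* (144 against at least 199). It also held the highest acinar share, 0.318% of counts against at most 0.0998%, and the highest erythroid share, 0.0618% against at most 0.00299%. E18.5 2 was high for *Syt4* (11.2 CPM against at most 7.35) and low for *Me1* (14.8 against at least 17.4) and *Shmt2* (21.2 against at least 29.04). E18.5 3 was low for *Shmt1* (7.84 CPM against at least 10.0).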

How the results depend on the processing

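No called gene named here reversed in any alternative run, while over all genes 1 was called in the opposite direction with the acinar term. The counts of calls stayed within 1.5 times of 5596 for DESeq2 (5586, of which 5167 were also called before, in the same direction), voom (7258) and median-ratio factors (5653). The same held for the filters (4971 and 5573), the 25 libraries alone (5565), no extraction term (5089) and the acinar settings (5448 and 5021). It also held for a term for S numbers above 60 (5129). The labels give this S number without saying what it stands for. It was above 60 in E18.5 2, 3 and 4, all TRIzol, and in 2 of 21 adults, so this term overlaps with group and extraction. The TRIzol libraries gave 3231 calls (1586 higher, 1645 lower), the Qiagen libraries 1860 (570 higher, 1290 lower), and a limit of at least 2-fold 3148 (1377 higher, 1771 lower). Of the Qiagen calls 30.6% were higher in adults, against 44.8%. The cause of the lower counts was not tested. Leaving out 1 E18.5 library gave 4111 to 4867 calls (1831 to 2116 higher, 2280 to 2751 lower), lowest without E18.5 1, and leaving out 1 adult 5428 to 5674 (2428 to 2540 higher, 2986 to 3134 lower). Of the 183 called genes named, 9 lost their call without E18.5 1, 2 with DESeq2 and 5 without the extraction term. Of the 60 tested genes named that were not called, 16 were called in at least 1 alternative, 12 of them with voom. For age, 12 genes were called, against 3 without the sex term, 226 without the extraction term, 6 in the 17 Qiagen adults, 2 without the adult of 364 days, 286.0 with DESeq2 and 38 with an acinar term; the cause was not tested. No paired analysis was possible because the labels carry title numbers, not stated to be animal numbers, that the groups do not share. Genes of a few counts per library, such as *Foxa1* and *Gabra3*, are at the limit of this depth.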
